A study of Oncorhynchus mykiss with 3 samples.

Results

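The small RNA of rainbow trout eggs held 137 predicted miRNA names whose main sequence was 25 nt or longer. In all, 305 predicted names and 880 predicted and known names were listed. The paper counts 306 predicted and 496 known miRNAs, so the number of names is not its number of miRNAs. The 137 members were chosen by the read counts and the length of the listed sequences. For each predicted name, the sequence with the most reads was taken as its main sequence, and the name was kept if that sequence had at least 25 nt. Length and the choice of the main sequence therefore describe the members and are not findings about them. Unfertilized eggs came from commercial Troutlodge fish at day 1 post-ovulation (D1PO), at day 7 (D7PO) and at day 14 (D14PO). The sample labels put their survival rate at 91.8% in D1PO, at 73.4% in D7PO and under 50% in D14PO. The paper gives the same figures as fertilization rates, scored by the cleavage of embryos. At each age, RNA was pooled over females and sequenced as 1 library, after the coelomic fluid had been removed. Each listed sequence carries a single read count that is tied to no library. No value by egg age, no replicate error and no test between ages could be had. Every value below is taken to describe the 3 ages together, which is an assumption. Among known miRNAs, omy-miR-202-5p, of a gonad family, held 4.02% of the reads, while the red blood cell miRNA omy-miR-451-5p held 2.22% and the muscle miRNA omy-miR-1-3p 1.96%. miRNAs of other cell types were thus read beside that of the gonad, and their part in the members was not tested.

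A miRNA is a regulator of mRNA that is cut from a hairpin of its precursor, first by Drosha and then by Dicer. The cuts leave a short duplex of a 5p and a 3p strand with small overhangs at the 3′ ends, and the seed near the 5′ end of the strand finds the target mRNA. Germ cells of animals hold another class, the piRNAs, which are bound by Piwi proteins and silence transposons. The zebrafish ovary has the Piwi proteins Ziwi and Zili. piRNAs are longer than miRNAs, come from single-stranded precursors without a hairpin and often from clusters in the genome, and those of the primary pathway mostly begin with U. In the amplification cycle of piRNAs, known as ping-pong, a cut across from base 10 gives partners on the opposite strand whose 5′ ends overlap by 10 nt, so that the partner of a sequence that begins with U carries A at position 10. The names of the members are those of the authors' prediction of miRNAs from hairpins, and no Piwi-bound RNA was measured, so the class of these RNAs was not tested.

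Of the 10 members with the most reads, 9 are shown first, because they show both the common first base and its exceptions. The 1st and the 10th base from the 5′ end are in capitals.
omy-miR-nov-85-3p: UcucgcaagGggcugcuuauggggg
omy-miR-nov-25-5p: UcgaccuuuUgacucagcgagcucugg
omy-miR-nov-191-5p: CgcggaucuCcccagcuacggugcu
omy-miR-nov-123-5p: UcggaagagGaaguuaugauguagguc
omy-miR-nov-149-5p: AaccaauuuAucuacucugaccuucu
omy-miR-nov-67-5p: UggacauguUcucuagaugcagagg
omy-miR-nov-49-5p: GgggagaggGuguaaaucucgcgcc
omy-miR-nov-179-3p: UuugaguauCugauuauugacugugu
omy-miR-nov-221-5p: UcagaucaaAagacacuuugucaggga

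omy-miR-nov-85-3p had 18497 reads (95% Poisson interval 18231 to 18766), from a hairpin on chrUn_28, plus strand, from 3788398 to 3788525. omy-miR-nov-25-5p had 7049 reads (6885 to 7216; chrUn, plus strand, 111506768 to 111506842) and omy-miR-nov-191-5p had 5998 (5847 to 6152; chrUn_14, plus strand, 15560934 to 15561007). The leading name thus had over 2 times the reads of any other member. omy-miR-nov-123-5p had 5225 reads (5084 to 5369; chrUn_15, plus strand, 18909003 to 18909087). The other five were omy-miR-nov-149-5p with 2816 reads, omy-miR-nov-67-5p with 2431, omy-miR-nov-49-5p with 2121, omy-miR-nov-179-3p with 2018 and omy-miR-nov-221-5p with 1786. Of these 9, 6 began with U and 2, omy-miR-nov-149-5p and omy-miR-nov-221-5p, had A at position 10. The intervals cover counting error only. Positions are those of the authors' tables, on a trout genome build not given in the sources used here, and were not matched to genes or repeats.

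The threshold of 25 nt cut through a continuous range of lengths. Just inside it, omy-miR-nov-85-3p and omy-miR-nov-191-5p were the 25-nt members with the most reads. Just outside it, the 24-nt names with the most reads are shown for comparison, with the same capitals.
omy-miR-nov-29-3p: CguaguuggAucucgggaucgagc
omy-miR-nov-209-3p: UaaaucggaAccgggugaagaaca
omy-miR-nov-29-3p had 13415 reads, of which its 24-nt main sequence held 6712, and omy-miR-nov-209-3p had 2406. The members' 165 listed sequences included 3 shorter than 25 nt, and 11 listed sequences of 25 nt or longer stood under 8 names whose main sequence was shorter.

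Predicted miRNAs had 2 common lengths. Among all 305 names, 67 main sequences were 22 nt long, the usual size of a miRNA, and the number fell to 19 at 24 nt before it rose to 23 at 25 nt and 52 at 26 nt. A further 44 names had 27 nt, 13 had 28 nt and 5 had 29 nt. The members were thus mostly 26 or 27 nt long, and 62 of 137 were longer than 26 nt.

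Most members began with U. The first base was U in 116 of 137 members, or 84.7% (95% Clopper-Pearson interval 77.5 to 90.3), and these names held 83.3% of the members' reads. Of the predicted miRNAs of 20 to 24 nt it was 86 of 156, or 55.1% (47.0 to 63.1). Of the known miRNAs of that length it was 162 of 428, or 37.9% (33.2 to 42.6). By reads, names with a first U held 35.2% in the former class and 84.4% in the latter. The members thus stood apart from the known miRNAs by names and not by reads. The intervals of the members and of either shorter class do not overlap, but they treat each name as a separate draw, and names that share a hairpin or a sequence are not independent. Among known miRNAs a length of 25 nt or more did not go with a first U, since 1 of 8 such names began with U and 6 with A.

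The first base changed below the threshold of 25 nt and not at it. The share of names that began with U was 43.3% at 22 nt, 54.8% at 23 nt and 89.5% at 24 nt (17 of 19 names, 66.9 to 98.7). From 25 to 29 nt it was 82.6%, 84.6%, 88.6%, 76.9% and 80.0%. The 24-nt names therefore lay among the members in their first base, and the 15 names of 20 nt, of which 12 began with U, had a like share of 80.0%. U was far more common in the members at the first base than at any later one. Over positions 2 to 25 its highest share was 39.4%, at position 17. At all later positions together U made up 28.8% of the bases, and at position 2 it was at its lowest, with 14.6%. G stood at position 2 in 40.9% of the members, against 22.4% of the predicted miRNAs of 20 to 24 nt, the highest share of G at any position of the members.

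**Figure D1:**
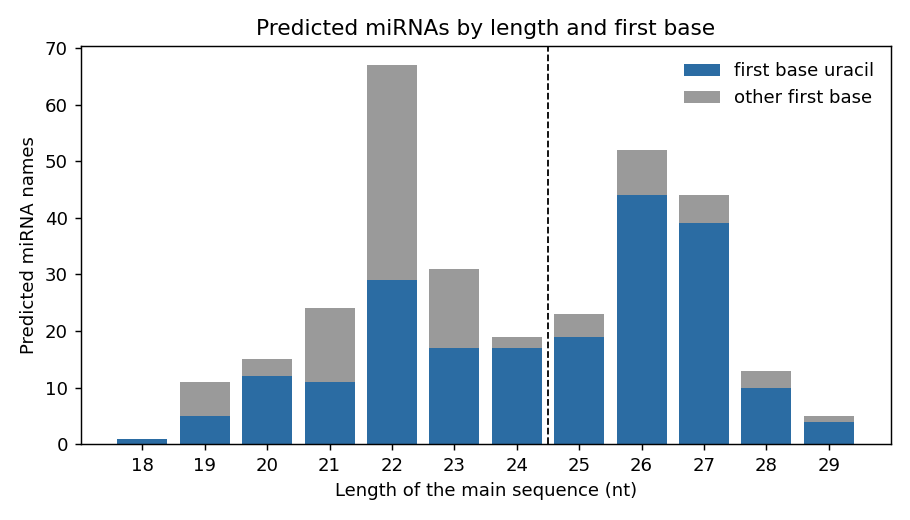
Number of predicted miRNA names (y axis) by the length of the main sequence in nt (x axis), with names that begin with U and names that begin with another base stacked in each bar. The bars peak at 22 nt with 67 names and at 26 nt with 52, and U takes most of each bar from 24 nt upward.

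A was the commonest base at position 10 of the members when names were counted, by a small margin, and not when reads were counted. It stood there in 49 of 137 members, or 35.8% (27.8 to 44.4), U in 34.3%, G in 16.8% and C in 13.1%. Over positions 2 to 25 the share of A ran from 16.1% at position 17 to 35.8% at position 10, with a median of 23.7%, and position 5 was close behind with 34.3%. The predicted miRNAs of 20 to 24 nt had A at position 10 in 45 of 156 names, or 28.8% (21.9 to 36.6), and their highest share was 35.3% at position 12. The intervals of both classes overlap, so a higher share of A at position 10 in the members was not shown. By reads, names with G at position 10 held 36.7% of the members' reads, U 28.2%, A 20.4% and C 14.7%, and A held 29.8% without the 5 names with the most reads.

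Members that did not begin with U had A at position 10 more often than those that did, 11 of 21 or 52.4% (29.8 to 74.3) against 38 of 116 or 32.8% (24.3 to 42.1), with overlapping intervals. In the predicted miRNAs of 20 to 24 nt the shares were 30.0% and 27.9%. The 21 members without a first U were 8 with C, 7 with G and 6 with A, and 9 of them had at least 200 reads. Of these 9, 3 had A at position 10, and of the 12 with fewer reads 8 had it, so most of the 11 had under 200 reads. The members that begin with U leaned the same way. A stood there in 14 of the 57 with at least 200 reads and in 24 of the 59 with fewer. The 9 members without a first U and with at least 200 reads are shown because they depart from the first base of the rest. Of these, omy-miR-nov-191-5p, omy-miR-nov-149-5p and omy-miR-nov-49-5p, are printed above. The other six follow, with the 1st and 10th base in capitals.
omy-miR-nov-49-3p: GgucuccaaGgugaacagccucuggca
omy-miR-nov-276-5p: CcgaaguuuCccucaggauagcuggcgcu
omy-miR-nov-56-3p: CgugggcucUcguuuguggucucgc
omy-miR-nov-197-5p: CaagagcacAgucgguuuuauccuuu
omy-miR-nov-211-5p: AacguacguGuugaucccucgacugu
omy-miR-nov-167-5p: GggauugugAcaagccuaagacgugcc
Their reads ran from 896 for omy-miR-nov-49-3p over 466 for omy-miR-nov-276-5p, 433 for omy-miR-nov-56-3p, 329 for omy-miR-nov-197-5p and 264 for omy-miR-nov-211-5p to 231 for omy-miR-nov-167-5p. Both names of the omy-miR-nov-49 hairpin began with G.

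**Figure D2:**
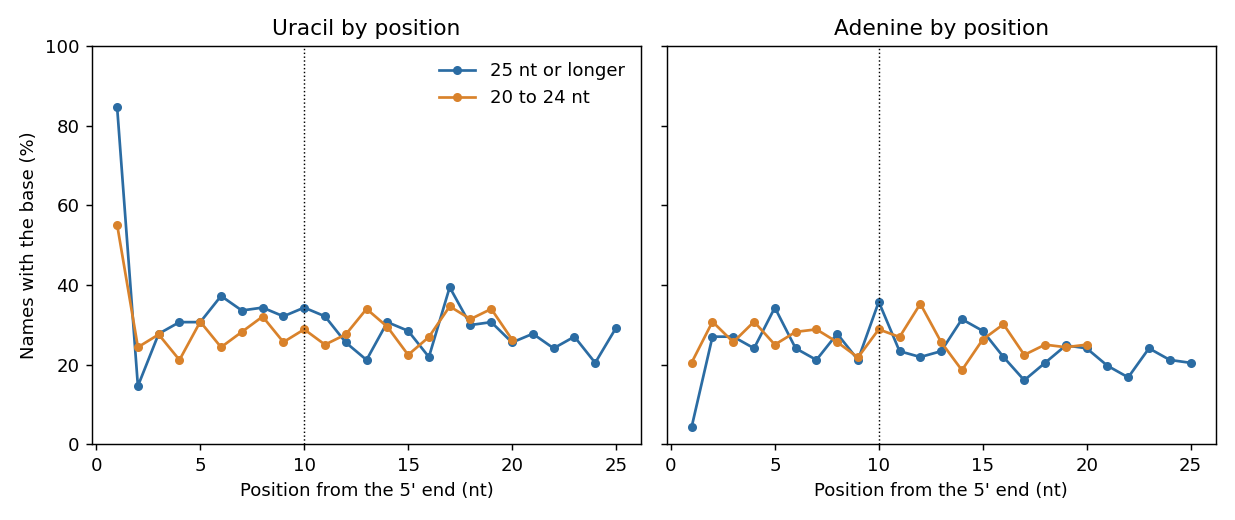
Percent of names with U and with A (y axis) at each position from the 5′ end in nt (x axis), in 1 panel for each base, for the members and for the predicted miRNAs of 20 to 24 nt. U stands at 84.7% at the first base of the members and at 14.6% at the second, and A reaches 35.8% at position 10, marked by a dotted line, close to the 34.3% at position 5.

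The members were mostly rare. Their reads came to 87594, or 26.3% of the 333447 reads of all predicted miRNAs (26.1 to 26.4), although they are 137 of 305 names. Reads of a name ran from 20 for omy-miR-nov-259-3p to 18497 for omy-miR-nov-85-3p, with a median of 192 and a middle range from 97 to 433. There were 38 names with under 100 reads, 84 with at least 100 and under 1000, and the 15 with 1000 or more held 66.7% of the members' reads. The 10 leading names held 59.1%. The predicted miRNAs of 20 to 24 nt had a median of 156.5 reads over 156 names, so the median member was not below the median shorter name, and the 12 names under 20 nt had a median of 363.5. The names of 20 to 24 nt held 55.2% of the predicted reads.

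**Figure D3:**
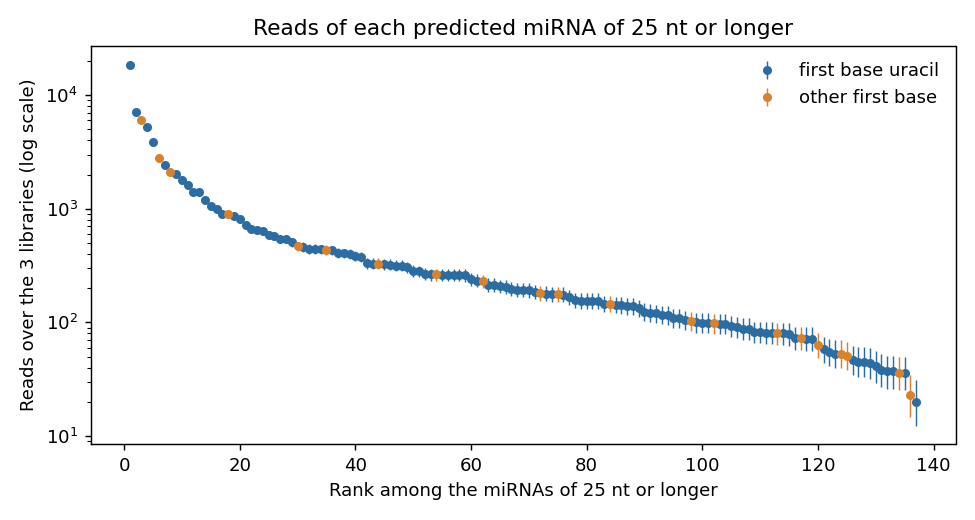
Reads, taken as totals over the 3 libraries (y axis, log scale), of each of the 137 members by rank (x axis). Each name has 1 point and its 95% Poisson interval, and names that do not begin with U are marked. Reads fall from 18497 at rank 1 to 20 at rank 137, and the members without a first U lie along the whole range.

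omy-miR-nov-112-5p, which the study took to RT-qPCR, lay near the end of this order. It was the 136th of 137 members, with 23 reads, and its sequence is shown because it was chosen for measurement, with the 1st and 10th base in capitals. It is outside the rule for named members and was picked after its value was seen.
omy-miR-nov-112-5p: GcuucuguaGagcaaguugaagauca
Its hairpin lies on chr_16, plus strand, from 180602 to 180667. It begins with G, while 84.7% of the members begin with U. The paper reports it as significantly higher in D1PO than in D14PO eggs, by both sequencing and RT-qPCR. The study chose its RT-qPCR targets by a minimum of quantile-normalized reads in single libraries. That minimum is a larger number than the 23 listed reads of this name. Normalized reads and listed counts are unlike measures, so they cannot be compared directly. That the listed counts are totals of the libraries remains an assumption.

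Both arms of the hairpin were named about equally often. The arm was 5p in 70 members, or 51.1% (42.4 to 59.7), and 3p in 67, and the 5p names held 53.3% of the reads. In the predicted miRNAs of 20 to 24 nt, 46.2% were 5p. The most abundant 3p members were omy-miR-nov-85-3p and omy-miR-nov-179-3p, followed by omy-miR-nov-239-3p with 1626 reads, omy-miR-nov-149-3p with 1392, omy-miR-nov-216-3p with 1390 and omy-miR-nov-128-3p with 994.

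The predicted hairpins of the members had a lower median length than those of the shorter predicted miRNAs. Their median length was 81 nt, with quartiles of 74 and 90 nt and a range from 57 to 135 nt, against 88 nt for predicted miRNAs of 20 to 24 nt (quartiles 80 and 97, range 57 to 142). A member took up a median of 32.5% of its hairpin and a shorter predicted miRNA 24.7%. The members were chosen for their length, so part of this difference follows from the rule and is not a finding. Hairpins from 70 nt to under 90 nt held 82 members, or 59.9%, and 69 of the shorter names, or 44.2%. Those from 90 nt to under 110 nt held 21 members and 63 shorter names, while longer ones held 15 members and 9 shorter names. The hairpin lengths of both classes overlap over nearly their whole range. The median hairpin was 85 nt for 20-nt names, 92 nt at 21 nt, 91 nt at 22 nt and 86 nt at 23 nt. It was 80 nt at 24 nt, 79 nt at 25 and at 26 nt and 84 nt at 27 nt. At 28 nt it was 88 nt and at 29 nt 82 nt. The lower median thus did not begin at the threshold of 25 nt. The hairpins of known miRNAs of 20 to 24 nt had a median of 75 nt.

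**Figure D4:**
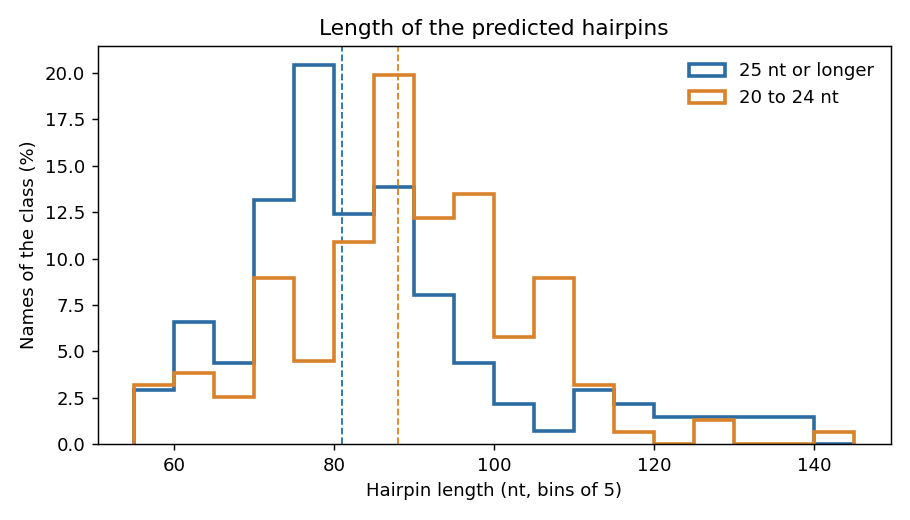
Percent of the names of a class (y axis) by the length of the hairpin in nt, in bins of 5 (x axis), for the members and for the predicted miRNAs of 20 to 24 nt, with dashed lines at the medians. The members peak below the shorter names, with medians of 81 and 88 nt, and both classes spread from 57 nt upward.

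In 19 hairpins, a member and a second predicted name were listed on the same hairpin, named as its 5p and 3p arms. Both names were members in 13 of these hairpins, and in 6 the second name had a shorter main sequence. By the hairpin of the main sequence, 31 members (22.6%) shared it with another predicted name, 25 of them with another member, and 106 were alone. Here omy-miR-nov-26-3p counts with the shorter omy-miR-nov-26-5p, although a further sequence of it lies on the hairpin of omy-miR-nov-25-5p. Of the predicted miRNAs of 20 to 24 nt, 20 of 156 (12.8%) shared theirs. The most abundant 5p sequence had more reads than the 3p sequence in 11 hairpins and fewer in 8. The higher had a median of 2.92 times the reads of the lower, with a range from 1.03 to 45.0 times. These counts include omy-miR-nov-56-5p and omy-miR-nov-56-3p, which share part of their sequence and whose arms are therefore uncertain. In the 13 hairpins with 2 members, which leave this pair out, 5p was higher in 6 and 3p in 7, with a median of 3.24 times.

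Both strands of a hairpin mostly began with U, as most members do, and by median they had fewer base pairs than the pairs of shorter predicted names. Both names began with U in 15 of the 19 hairpins, and in 0 of the 8 hairpins whose 2 names were both shorter than 25 nt. Of all members 84.7% begin with U, and of the predicted miRNAs of 20 to 24 nt 55.1%. These counts thus in part restate those shares. In the lowest-energy duplex of the 2 strands, found with RNAduplex, the 19 pairs had a median of 13 base pairs, with a range from 4 to 24, and a median energy of -12.8 kcal/mol. The 8 pairs of shorter names had a median of 17 base pairs, with a range from 11 to 19, and -19.7 kcal/mol. At least 16 base pairs were found in 6 of 19 and in 6 of 8. Overhangs of 1 to 3 nt at both 3′ ends were found in 0 of 19 and in 4 of 8. Overhangs of exactly 2 nt at both 3′ ends were found in 0 of 19 and in 0 of 8. Only the wider range thus set the classes apart. In the 13 hairpins with 2 members, both names began with U in 10, the median was 11 base pairs, and 0 had overhangs of either kind. In 12 of the 19 pairs at least 1 end was off by 5 nt or more, against 0 of the 8. This duplex was computed after the values were seen, has no test, and leaves out the rest of the hairpin, whose sequence was not analysed here. No pairs of known miRNAs were set beside these, so how known duplexes score by this measure is not shown.

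Pairs with the most and the fewest base pairs are shown, with the 1st and 10th base in capitals. omy-miR-nov-25-5p is printed above, and a sequence of omy-miR-nov-26-3p lies on the same hairpin.
omy-miR-nov-26-3p: AccaagcuuGaucugagccaaaaggccga
omy-miR-nov-123-3p: UucgagcugCaucagggcuacccucc
omy-miR-nov-279-5p: UcgacgcaaUcccucgccucgugcucagc
omy-miR-nov-111-3p: UccacaguaUcugcaccuccucgugc
omy-miR-nov-25-5p and omy-miR-nov-26-3p had the most base pairs, 24 at -28.6 kcal/mol with even ends, and their most abundant sequences at this hairpin had 3645 and 81 reads. omy-miR-nov-123-5p and omy-miR-nov-123-3p had 20 base pairs, 5225 and 123 reads, and 3′ ends that fell short of the partner's 5′ end by 2 and 1 nt. These are among the hairpins with the most unequal strands. omy-miR-nov-279-5p and omy-miR-nov-111-3p, with 139 and 642 reads on chrUn, minus strand, from 1097465195 to 1097465273, had 4 base pairs. omy-miR-nov-221-5p and omy-miR-nov-239-3p, on chrUn, plus strand, from 1039674053 to 1039674137, had 1786 and 1626 reads and 7 base pairs, so 2 abundant strands of nearly equal level hardly paired.

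The other hairpins with both arms lay between these. omy-miR-nov-49-5p and omy-miR-nov-49-3p had 2121 and 896 reads and 16 base pairs with even ends. omy-miR-nov-97-5p and omy-miR-nov-97-3p, with 156 and 143 reads, had 18 base pairs. omy-miR-nov-26-5p, a 24-nt name with 483 reads, and omy-miR-nov-26-3p, with 420 reads of its main sequence there, also had 18. Where both names were members, the 3p strand was higher in 7 of 13 hairpins. The 3p and 5p reads were 1390 and 181 for omy-miR-nov-216-3p and omy-miR-nov-160-5p, 668 and 146 for omy-miR-nov-227-3p and omy-miR-nov-175-5p, and 543 and 175 for omy-miR-nov-72. For omy-miR-nov-68 they were 305 and 81, for omy-miR-nov-129 213 and 73, and for omy-miR-nov-115-3p and omy-miR-nov-159-5p 120 and 37. In omy-miR-nov-32 the 5p strand was higher, with 155 reads against 99. A member whose partner had a shorter main sequence was the 5p strand in omy-miR-nov-16, with 380 reads against 156. It was the 3p strand in omy-miR-nov-125, with 315 reads against 456, in omy-miR-nov-171, with 329 against 320, and in omy-miR-nov-147-3p, with 259 against 339 of omy-miR-nov-217-5p. The sequence of omy-miR-nov-217-5p on that hairpin had 26 nt, as long as the member, while the main sequence of that name had 24 nt. In omy-miR-nov-56 the member had 433 reads against 16326. The 6 hairpins whose second name had a shorter main sequence thus held both nearly equal and very unequal reads.

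**Figure D5:**
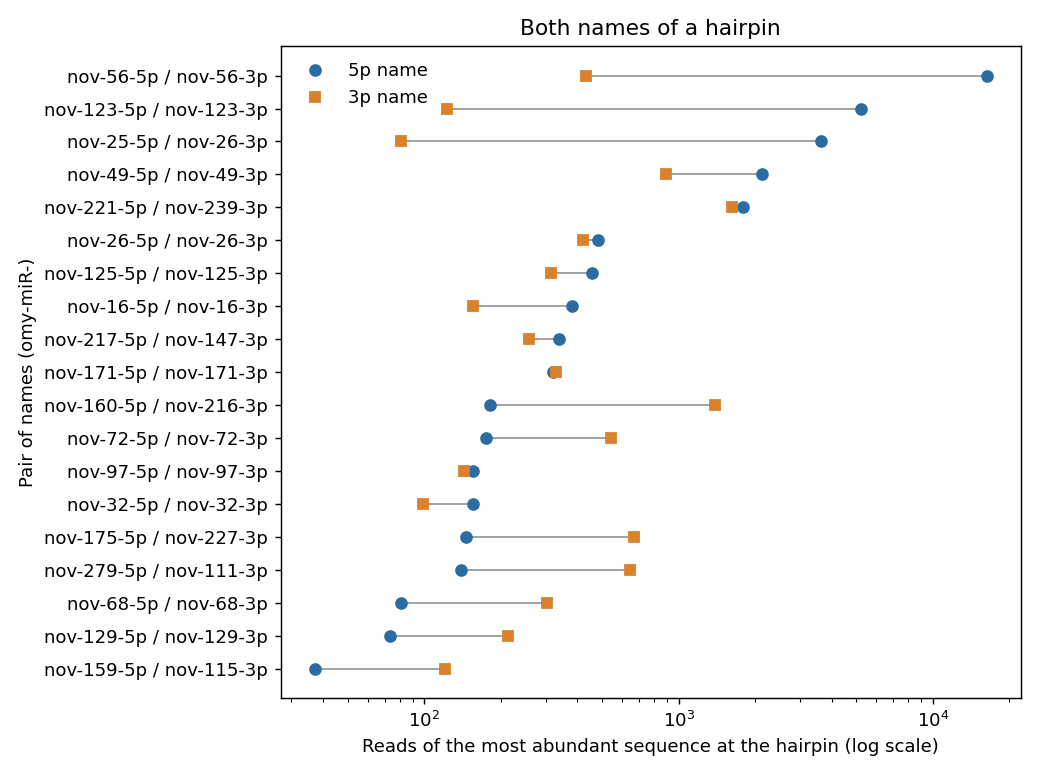
Reads of the most abundant 5p and 3p sequence (x axis, log scale) at each of the 19 hairpins that carry a member and a second predicted name (y axis, names without the prefix omy-miR-). The points of a hairpin lie between 1.03 and 45.0 times apart, with 5p higher in 11 hairpins and 3p in 8.

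Few members were read in more than 1 form, and the share was much like that of the shorter predicted miRNAs. Of 137 names, 20 (14.6%, 9.15 to 21.6) had further listed sequences, against 21 of 156 (13.5%, 8.53 to 19.8) of 20 to 24 nt. A member had at most 4 sequences in all, and the 28 further sequences of the members held 17379 reads. Some of their 5′ ends moved, and most sequences with a moved end began with U, as most members do. Of the 28, 14 began at another base than the main sequence, shifted by -7 to 5 nt, all in names that begin with U, and 12 of these 14 again began with U. The 2 exceptions were both sequences of omy-miR-nov-26-3p. Of all members 84.7% begin with U, so the count of 12 in part restates that share. Only the 3′ end differed in 7 of the 28, and 10 had at least 1 mismatch to the main sequence. In 20 of the 28 the listed hairpin position was not identical to that of the main sequence. For omy-miR-nov-84-3p and omy-miR-nov-7-5p both positions overlapped almost wholly. Where another place was listed, copies in the genome and other ends of 1 RNA cannot be told apart.

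The forms are shown for names in which the shifted sequence also began with U, and for omy-miR-nov-85-3p, whose 5′ end did not shift. The 1st and 10th base are in capitals, and the main sequence of omy-miR-nov-136-5p stands above its second form.
omy-miR-nov-136-5p: UacuguucaUggcuaacgauccggca
omy-miR-nov-136-5p, second form: UguucauggCuaacgauccggcag
omy-miR-nov-25-5p, second form: UucgaccuuUugacucagcgagcucugg
omy-miR-nov-41-5p, second form: UcaccgauaAuguugacuuguaguucuc
omy-miR-nov-85-3p, second form: UcucgcaagGggcugcuuauggggguu
omy-miR-nov-136-5p had 468 reads of the main form and 267 of the form that begins 3 nt further in. The second form of omy-miR-nov-25-5p begins 1 nt earlier and had 3303 reads, close to the 3645 of the main form. The second form of omy-miR-nov-41-5p, with 151 reads, begins 7 nt earlier. omy-miR-nov-85-3p kept its 5′ end and was listed with 2 more bases at the 3′ end for 7731 reads, against 10766 for the 25-nt form, or 58.2% of the name (57.5 to 58.9). The longer form is listed on chrUn and the shorter on chrUn_28.

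Some members were partly the same RNA under 2 names. In 4 pairs of names at least 19 nt were shared on the same strand, and these are shown with the shared stretch in capitals.
omy-miR-nov-125-3p: UUCUCUUUGAUCCUCCUCAGACUCUC
omy-miR-nov-210-3p: UUCUCUUUGAUCCUCCUCAGACUCUCc
omy-miR-nov-127-3p: UAUUGUUUCUCUUACCAGCCAUCcacg
omy-miR-nov-128-3p: uguUAUUGUUUCUCUUACCAGCCAUC
omy-miR-nov-149-3p: UUUAUCUACUCUGACCUUCUuccauc
omy-miR-nov-149-5p: aaccaaUUUAUCUACUCUGACCUUCU
omy-miR-nov-56-3p: CGUGGGCUCUCGUUUGUGGucucgc
omy-miR-nov-56-5p: aucuCGUGGGCUCUCGUUUGUGG
omy-miR-nov-125-3p, with 315 reads, lies whole within omy-miR-nov-210-3p, with 192, and they are listed on opposite strands of chrUn. omy-miR-nov-127-3p (82 reads) and omy-miR-nov-128-3p (994) share 23 nt, with 5′ ends 3 nt apart that both begin with U. omy-miR-nov-149-3p (1392) and omy-miR-nov-149-5p (2816) share 20 nt, although they are named as opposite arms and listed on different genome sequences. omy-miR-nov-56-3p (433) shares 19 nt with omy-miR-nov-56-5p, a 23-nt name outside the members with 16326 reads, again named as opposite arms and here listed on 1 hairpin. The arms of these last 4 names are uncertain, because the arms of a hairpin pair with each other and would share such a stretch only if the hairpin held a repeat. Reads of such pairs cannot be told apart where the sequence is shared.

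The placement of some members in the genome was not unique. Among the members' listed sequences, 14 pairs had one sequence lying inside the other, and in 8 of these the shorter was listed at another place than the longer. The shorter sequence then fits at least 2 positions, of which 1 is listed. With known miRNAs, the longest stretch shared by a member was 13 nt on the same strand and 12 nt on the opposite strand, so no member held an exact stretch of a known miRNA longer than this. Forms of a known miRNA with mismatches were not searched for.

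No pair of members had the 10-nt overlap of 5′ ends on opposite strands that ping-pong partners have. Of 9316 pairs of members, 13 overlapped perfectly by 5 nt, 5 by 6 nt and 1 by 7 nt, omy-miR-nov-174-3p with omy-miR-nov-259-3p, and 0 by 8 to 25 nt. Of 12090 pairs of predicted miRNAs of 20 to 24 nt, 0 overlapped by 10 nt and the longest overlap was 8 nt, in 1 pair. By the authors' account, only sequences were listed that passed the hairpin prediction and a minimum number of reads, with matches to repeats removed. A partner that was not listed could therefore not be seen here.

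Seeds were nearly all different, as in the predicted miRNAs of 20 to 24 nt, whose 156 names made 155 distinct seeds. Bases 2 to 8 of the 137 members made 134 distinct seeds, and 3 seeds were shared by 2 members each. These were omy-miR-nov-254-3p with omy-miR-nov-47-5p, omy-miR-nov-139-5p with omy-miR-nov-250-5p, and omy-miR-nov-125-3p with omy-miR-nov-210-3p, the pair that shares its whole sequence. A seed of a known miRNA of the table was found in 2 members, which are shown with the seed in capitals.
omy-miR-nov-230-3p: gAGGACUUgaacuaaguggaaaaacu
omy-miR-nov-30-3p: uCCCAGAAaggagauuguagagcggug
omy-miR-nov-230-3p, with 102 reads, shares its seed with omy-miR-27a-2-5p and omy-miR-27c-5p, and omy-miR-nov-30-3p, with 330 reads, with omy-mir-25-3p. Of the predicted miRNAs of 20 to 24 nt, 9 of 156 shared a seed with a known name.

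More members lay on the plus strand than on the minus strand of the genome sequences. The plus strand held 93 of 137, or 67.9% (59.4 to 75.6), and 88.5% of the reads. Of the predicted miRNAs of 20 to 24 nt, it held 82 of 156, or 52.6% (44.4 to 60.6), and 65.8% of the reads. The intervals of both classes overlap only from 59.4 to 60.6, and the difference was not tested. The median was 259 reads for members on the plus strand and 129.5 on the minus strand. The strand of a genome sequence is a convention of its assembly.

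The members were listed on many genome sequences and formed few clusters. chrUn, usually a name for sequence placed on no chromosome, held 94 of 137 members (68.6%) and 104 of the 156 shorter names (66.7%). The rest lay on 28 other genome sequences, with at most 5 members on 1 of them, chrUn_12. Most of these names also begin with chrUn, and only chr_15, chr_16, chr_17, chr_27 and chr_29, with 1 member each, do not. Whether the longer chrUn names stand for placed sequence was not analysed here. Within 10 kb of the hairpin of another member, other than the same hairpin, lay 8 members (5.84%), all on chrUn, against 2 of the 156 shorter names (1.28%) near another of their class. With any predicted or known hairpin as the neighbour, the counts were 11 of 137 members (8.03%) and 9 of 156 shorter names (5.77%). The 8 members near another member formed 3 groups, with both arms counted for omy-miR-nov-68 and omy-miR-nov-129. omy-miR-nov-78-5p lay 1245 nt from the hairpin of omy-miR-nov-68-5p and omy-miR-nov-68-3p on the plus strand. omy-miR-nov-201-5p lay 7679 nt from that of omy-miR-nov-129-5p and omy-miR-nov-129-3p on the minus strand. omy-miR-nov-197-5p and omy-miR-nov-251-3p lay 2491 nt apart on the plus strand, with the predicted omy-miR-nov-119-5p on the minus strand between them. Within 50 kb there were 10, with omy-miR-nov-17-5p and omy-miR-nov-135-3p 24458 nt apart on chrUn_16. How the pieces of chrUn were joined, on which these distances depend, was not analysed here.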

How the data were processed

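For each of 3 egg ages the authors sequenced a single library of pooled small RNA. The deposited values, counts of reads per unique sequence, were made by the authors with ACGT101-miR 3.5 and miRBase release 21. The authors state that adapter, low-quality and low-copy reads were removed, and sequences that matched mRNA, repeats or other RNA families. Whether any such sequences were left among the members or the shorter names was not checked here. Predicted names come from sequences whose genome surroundings can form a hairpin. The counts name no library. Here they were read as totals of all 3 libraries, an assumption that no source states. The listed counts of known names came to 7684127, more than the paper reports as mapped to miRBase for the 3 libraries together. Why they exceed it was not tested. The authors' stated filter removes sequences over 26 nt, while 62 members are longer. The build behind the positions was not given in the sources used here.

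Reads were summed by name. The sequence with the most reads, ties by alphabet, was the main sequence. Shares carry Clopper-Pearson and reads exact Poisson intervals at 95%, counting error only. No test was run, since there is no replicate and no value by age. Duplexes were computed with RNAduplex of ViennaRNA 2.7.2, a step added after the values were seen. The sequence and interval functions were checked on simulated sequences and draws. The software was SciPy 1.17.1, numpy 2.4.6, pandas 2.3.3, matplotlib 3.10.9 and Python 3.11.15. Matching to other RNAs or to a genome was not run.

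The members and lists were chosen with earlier results of these data known. Named are the 10 members with the most reads, the 6 of each arm, those with at least 200 reads and no first U, those that share a hairpin or have a member's hairpin within 10 kb, those with a 10-nt overlap of 5′ ends, and the 2 leading names of 25 and of 24 nt. Of these, 1 member is not reported here. Other names were picked after their values were seen. Alternatives changed the read or length minimum, the weighting, the distance and the leading names left out.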

Additional observations from a re-analysis of the deposited data

How the results depend on the processing

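Of 35 alternatives run, 28 left a share or median within the interval of its main value, or a count within 1.5 times. The share of A at position 10 moved from 35.8% of names to 20.4% when weighted by reads, where G and U were then commoner, and was 29.8% by reads without the 5 leading names. Members near another member's hairpin numbered 8 within 10 kb, 0 within 1 kb and 0 without chrUn. The members' share of predicted reads was 26.3%, with 25.1% from main sequences only, 35.5% from all listed sequences of 25 nt or longer and 37.1% without the 5 predicted names with the most reads. With up to 1 mismatch, 1 pair of members had a 10-nt overlap of 5′ ends, against 0. Each alternative changes what is counted, and no other cause was tested. The 5p share ran from 47.5% to 53.3% and so lay on either side of 50%. The first base, the hairpin length and shared hairpins moved by less, under each alternative run for them. No paired analysis was possible because the counts name no library and an age has only 1. Precision is limited by the 137 names for shares of names and by as few as 20 reads for a name.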
